A study of Mus musculus with 7 samples.

Results

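The replication-dependent histone genes were followed in mouse neutrophils, cells that divide as bone marrow precursors and circulate after their last division. The group holds every gene row whose symbol starts with Hist1h, Hist2h, Hist3h or Hist4h in the 7 deposited count files, which gave 69 of 28719 gene rows. It comprises 6 linker histone H1 rows, 19 H2A rows, 19 H2B rows, 12 H3 rows and 13 H4 rows. In the neutrophils of all libraries, 65 rows had at least 1 UMI (unique molecular identifier, a tag that counts captured RNA molecules) and 4 had none. Hist1h1c and Hist1h2bc were chosen by name because earlier results of these data placed them high in mature cells. Their differences between tissues and between cell classes are therefore given as descriptions, without p-values. For the main fits of healthy libraries, counts of called rows are also given without them. Counts in the inflammation library include them.

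Core histones H2A, H2B, H3 and H4 form the nucleosome, and H1 binds the DNA that enters and leaves it. Cells make most new histone in S phase, from clustered genes without introns whose mRNAs end in a conserved stem-loop instead of a poly(A) tail. The stem-loop binding protein SLBP, with the U7 snRNP, forms that end during replication. Some histone genes can also give polyadenylated transcripts, and replacement histones such as H3.3 and H2A.Z are made outside S phase from ordinary polyadenylated mRNAs. In neutrophils, chromatin is condensed as the nucleus becomes segmented, and histones are released with DNA when extracellular traps form. The assay here copies RNA from its poly(A) tail, so an mRNA that ends at the stem-loop is expected to be captured poorly, and the levels below are those of captured RNA only.

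All neutrophils were sorted as CD11b+ Ly6G+ cells that exclude propidium iodide, from male C57BL/6J mice, and were loaded on the 10X Chromium 3′ platform. Healthy blood, bone marrow and spleen each gave 1 library in run 1 and 1 in run 2, and each library pools 3 mice. The mice were 6 weeks old in run 1 and 8 weeks old in run 2, so age and run cannot be told apart, and within a run the same mice gave every tissue. The inflammation library is a single library in which hashtag antibodies mark 5 conditions, and the treated mice were 8 weeks old at the first injection or dose. These are healthy blood, blood and joint 7 days after arthritis was started with K/BxN serum (150 µl into the peritoneum on days 0 and 2), lung 3 h after 25 ng of IL-1b into the nose, and peritoneum 3 h after 25 ng of IL-1b into the peritoneum. Each condition is 1 pool, so differences between conditions have no replicate check. The healthy libraries used an earlier 10X chemistry than the inflammation library, and differences between groups are taken only within each of these data sets.

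Healthy cells were kept when S100a8 and S100a9, the most abundant neutrophil transcripts, made up at least 3% of their UMIs, which kept 12755 of 16907 cells. Bone marrow of run 1 kept the largest share, 94.9%, and spleen of run 2 the smallest, 46.2%. In the inflammation library 4852 of 4856 cells carried a granulocyte class in the deposited cell table. All 15 neutrophil markers had a UMI in each library and condition. Summed UMIs ran from 1360064 to 9104133 per healthy library and from 942688 to 10293966 per inflammation condition, and any 2 libraries shared 0 to 27 cell barcodes. Cells of bone marrow were deeper, with a median of 2133.5 and 2698.5 UMIs against 775 to 1355 in blood and spleen. Only 356 cells, 2.79% of healthy neutrophils, held a UMI of Top2a or Mki67, genes of dividing cells, and they held 12.1% of the UMIs.

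The stem-loop letters of the most abundant rows are shown first, because the assay reads only RNA with a poly(A) stretch and the rows differ in where their annotated transcript stops relative to the stem-loop. In each line the capitals mark the match to the histone stem-loop motif of 16 bases, GGNNCTT followed by NTNAG and NNCC, searched on the transcript strand of GENCODE mouse release 21 (GRCm38), with up to 6 flanking bases in lower case. The last 3 lines are rows seen mostly in cycling cells, and Hist1h2bj was picked for display after its values were seen.
Hist1h1c: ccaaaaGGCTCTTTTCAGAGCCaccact
Hist1h4i: cttaaaGGCCCTTTTTAGGGCCaccaca
Hist1h2be: accaaaGGCTCTTTTCAGAGCCacccaa
Hist3h2a: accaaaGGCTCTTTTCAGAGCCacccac
Hist2h2aa1 and Hist2h2aa2: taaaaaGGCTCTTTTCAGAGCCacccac
Hist1h2ae: aacaaaGGCTCTTTTCAGAGCCattcac
Hist1h2ap: aaaaaaGGCTCTTTTCAGAGCCatc
Hist1h2bj: tccaaaGGCTCTTTTCAGAGCCacgcac

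The stem itself is nearly the same in all of these rows, and the annotated distance beyond it is what differs. The Hist1h1c transcript (GRCm38, chr13:23738808-23740367, + strand, 1 exon) is annotated 840 bases past the stem-loop and holds AATAAA, the poly(A) signal, within its last 60 bases. Hist1h2be (chr13:23583670-23621124, − strand) runs 1861 bases past it, Hist3h2a (chr11:58954685-58956830, + strand) 1643 bases, and Hist1h4i (chr13:22040636-22041362, − strand) 330 bases. Hist1h2ae (chr13:23570517-23571220, − strand) runs 151 bases past it, while Hist2h2aa1 and Hist2h2aa2 end 35 bases, Hist1h2bj 23 bases and Hist1h2ap 3 bases after it. Hist1h2bc (chr13:23684199-23692908, + strand) is annotated as 2 exons joined to a transcript of 1156 bases without a match, so its single annotated transcript does not contain these letters. Of the 69 rows, 68 were found by symbol, with 55 on chromosome 13 and 10 on chromosome 3. A match was found in 46 of them, of which 23 are annotated at least 100 bases past it and 23 stop sooner, and 22 have no match. Among 21877 protein-coding genes, 0.622% hold these letters, and 66.4% have AATAAA near a transcript end against 15 of the histone rows.

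Promoters of the group also share elements that the choice by symbol did not use. Of 61 rows matched to RefSeq (GRCm38.p6), 50 had CCAAT, the box bound by NF-Y, on either strand within 250 bases before an annotated start, and 33.8% of 32851 promoters of that length did. TATAAA stood in 29 rows (12.4% of all promoters). The octamer, ATTT followed by GCAT, bound by Oct-1 and known from H2B promoters, stood in 14 rows (1.60%), and the H1 box AAACACA in 9 rows (6.25%). H2A rows were among those with the octamer, and H2A and H2B rows among those with the H1 box. Windows of neighbouring rows on opposite strands can overlap, as for Hist1h2bj and Hist1h2ag, so the same site can count for both. These are matches of letters and not shown to be sites in use.

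Several rows share long stretches with other histone rows, so the aligner may have split their reads. Hist2h2aa1 and Hist2h2aa2 share all 60-base stretches of their transcript ends, and Hist2h2aa2 took 87.9% to 90.7% of their joint UMIs in run 1, while Hist2h2aa1 took 84.2% to 92.9% in run 2. In blood their sum was 160 and 29.0 CPM (the UMIs of a row per 1e+06 UMIs of the cells summed) in run 1 and run 2, against 35.1 and 17.1 CPM in bone marrow and 60.3 and 21.5 CPM in spleen. Hist1h2al, annotated as a processed pseudogene, had 289 UMIs in blood, 668 in bone marrow and 435 in spleen of run 1 but only 29, 18 and 8 in run 2. Hist1h2ap had no row in the run 1 files, and in bone marrow of run 2 it held 90.1% of the UMIs of Hist1h2al, Hist1h2ao and Hist1h2ap. The shared stretches of Hist1h2al were chiefly those of Hist2h2aa1, Hist2h2aa2, Hist2h2ac and Hist2h2ab. For Hist1h2ap they were chiefly those of Hist1h2ao, Hist1h2ag, Hist1h2ac and Hist1h2ad. Hist1h2al and Hist1h2ap are therefore not shown to be copies of each other. These rows are uncertain as single genes, and a difference between runs in them cannot be told apart from the change of Cell Ranger version. Hist1h1e overlaps Hist1h2be on the same strand, and Hist3h2a overlaps Trim17, so reads of these pairs could not be assigned with certainty.

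Histone RNA in neutrophils came from few rows. Hist1h2bc, an H2B gene, gave 42.3% of the 25470 histone UMIs, and Hist1h1c, which encodes linker histone H1.2, gave 20.6%. Hist1h4i, an H4 gene, gave 10.3%, the pseudogene row Hist1h2al 5.85% and Hist1h2be, a further H2B gene, 4.90%. These shares pool libraries that differ, since Hist1h2al lay chiefly in run 1 and Hist1h2be had 998 of 1249 UMIs in the inflammation library. The joint share of Hist1h2bc, Hist1h1c and Hist1h4i ran from 41.8% in bone marrow of run 1 to 87.8% in blood of run 2. By family, H2B held 48.3% of the UMIs, H1 22.6%, H2A 16.3%, H4 12.0% and H3 0.864%. With these leaders included, 14 rows reached 100 UMIs in all, 18 had 21 to 99 and 33 had 1 to 20. Shares of UMIs compare captured 3′ ends and not lengths or protein.

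The summed level of all 69 rows was highest in blood and lowest in bone marrow in both runs. Blood had 1786 and 1169 CPM in run 1 and run 2, spleen 674 and 1110, and bone marrow 492 and 328. The counting interval was narrow (in blood of run 2, 1133 to 1206, 95% Poisson, as for all intervals here, which cover counting error only), and the runs of a tissue differed by far more than that. Counted per cell the order was less clear, with 186 and 111 histone UMIs per 100 cells in blood, 160 and 108 in spleen and 173 and 87.3 in bone marrow. Blood exceeded bone marrow in both runs on either scale, but per cell the runs overlapped. These sums were carried by Hist1h2bc and Hist1h1c, which were chosen by name. The 67 other rows together had 695 and 252 CPM in blood, 319 and 265 in spleen and 314 and 166 in bone marrow, so that blood was highest in run 1 only, while per 100 cells bone marrow was highest in both runs, with 111 and 44.2 UMIs against 23.9 to 75.6.

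**Figure D1:**
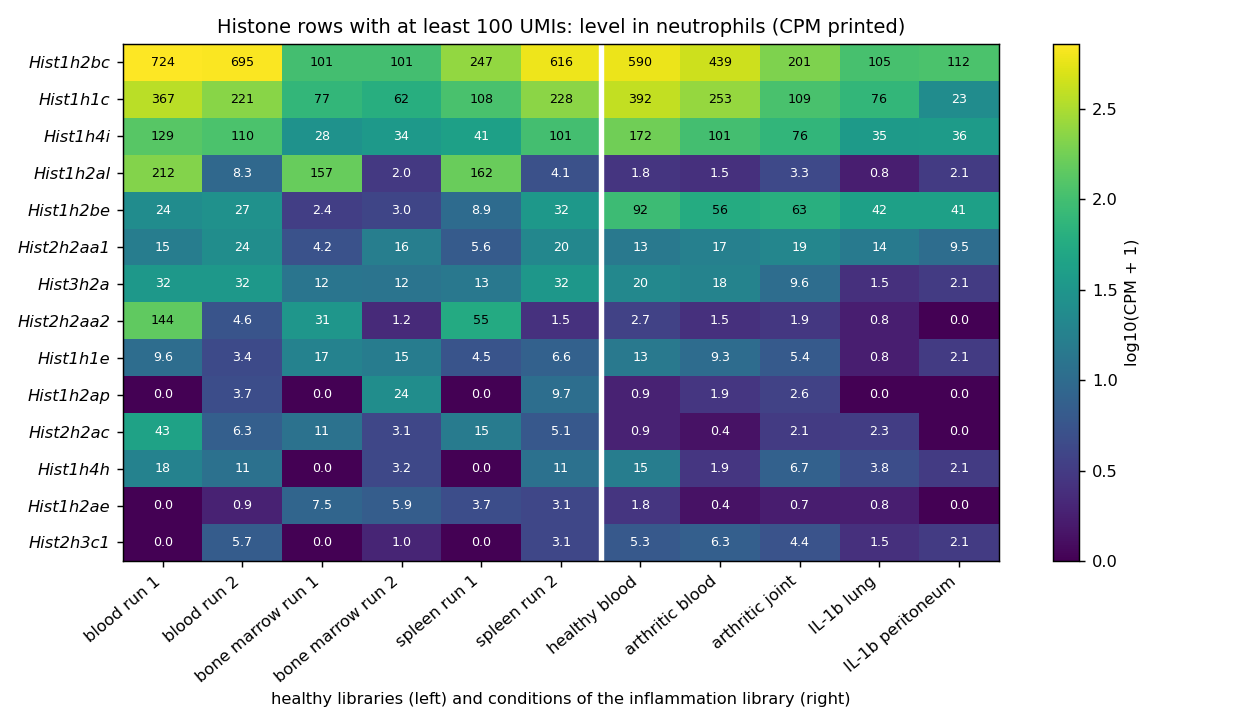
Heat map of the 14 histone rows with at least 100 UMIs (rows, most UMIs at the top) across the 6 healthy libraries and the 5 conditions of the inflammation library (columns), colour as log10(CPM + 1) with the CPM printed in each field. Hist1h2bc, Hist1h1c and Hist1h4i have their highest values in healthy blood, while Hist1h2al and Hist2h2aa2 are bright only in run 1.

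Bone marrow and blood were compared to ask whether histone RNA differs between the site of neutrophil production and the circulation. Hist1h2bc stood at 724 and 695 CPM in the blood libraries and at 101 and 101 in those of bone marrow. For Hist1h1c these levels were 367 and 221 CPM against 76.5 and 61.5. The libraries of the tissues did not overlap for either gene. Their log2 differences, bone marrow minus blood, were -2.53 ± 0.29 (SE) and -1.79 ± 0.33. The rows not chosen by name were tested by edgeR's quasi-likelihood test with Benjamini-Hochberg adjustment over 7809 genes and n = 2 libraries per tissue. Hist1h2be was at 23.5 and 27.3 CPM in blood against 2.35 and 2.97 in bone marrow (log2 difference -2.97 ± 0.38, adjusted p = 0.00426 by edgeR), and Hist1h4i at 129 and 110 against 27.8 and 33.6 (-1.68 ± 0.29, adjusted p = 0.0103). Hist3h2a, an H2A gene outside the main cluster, was at 32.4 and 32.5 CPM against 11.8 and 11.6 (-1.17 ± 0.28, adjusted p = 0.0265 by edgeR).

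RNA of Hist1h1e, which encodes linker histone H1.4, went the other way. It had 17.4 and 14.9 CPM in bone marrow against 9.56 and 3.45 in blood (log2 difference 1.79 ± 0.41, adjusted p = 0.0231 by edgeR). Of 69 rows 21 passed the filter on low counts, of which 2 were higher in bone marrow (Hist1h1e and Hist1h2ap) beside 9.94% of all genes tested. Lower were 7, beside 11.7% of all genes. These were Hist1h2bc, Hist1h1c, Hist1h2be, Hist1h4i, Hist3h2a, Hist2h2aa2 and Hist2h2ac, the last named after its values were seen. Without Hist1h2bc and Hist1h1c, 2 of 19 rows were higher and 5 lower. Hist1h2ap has no row in run 1, where up to 10 UMIs would go unlisted, so its call rests on run 2.

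These tissue calls depended on single libraries, on the tool, on the run term and on the scale. Neither Hist1h1e nor Hist3h2a was called with DESeq2 (adjusted p = 0.185 and 0.208) or by edgeR without bone marrow of run 2 (adjusted p = 0.12 for both). With blood of run 1 left out, or with blood of run 2 left out, no histone row was called in either direction. Blood was then 1 library, and few genes of any kind were called by edgeR, 32 higher and 25 lower of 8702 without run 1 and 0 of 8136 without run 2. Hist1h2be was at -2.72 and -3.39 in these fits. Without the run term as a block, 0 of the 19 rows not chosen by name were called, beside 1.06% of all genes higher and 1.04% lower. Per cell, the median of all genes moved to 1.33 because bone marrow cells are deeper. On that scale Hist1h2be (-1.66 ± 0.36) was still lower, beside 1.96% of all genes, and Hist1h2bc was at -1.19 ± 0.34, Hist1h1c at -0.44 ± 0.33, Hist1h4i at -0.34 ± 0.31 and Hist3h2a at 0.14 ± 0.29. Higher per cell were 6 rows (Hist1h1e, Hist1h2ap, Hist1h2ae, Hist1h1b, Hist1h4c and Hist1h2bj), beside 56.9% of all genes.

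Blood also held more platelet and B cell RNA than bone marrow in both runs, and more red cell RNA in run 2. The 8 B cell markers summed to 22.8 and 330 CPM in blood and to 4.47 and 190 in bone marrow. The 15 neutrophil markers were lower in blood, at 312040 and 213004 CPM against 503781 and 480314. The 10 platelet markers summed to 139 and 221 CPM in blood and to at most 4.50 in bone marrow and spleen, and 9 red cell markers to 708 CPM in run 1 and 30385 CPM in run 2 of blood. In bone marrow these red cell markers were at 916 and 307 CPM, and spleen had 255 and 356 CPM. Bone marrow held more of 11 monocyte or macrophage markers, 1391 and 1020 CPM against 640 and 269 in blood, and more of 8 neutrophil precursor markers, 5191 and 4183 CPM against 742 and 182. With all cells left out that held a UMI of a B cell, T cell, NK cell or platelet marker, Hist1h2bc was at -2.35 ± 0.30 and Hist1h1c at -1.63 ± 0.32. The part of red cell, monocyte, precursor and neutrophil marker RNA in the result was not tested.

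Spleen lay between the other tissues in both runs for Hist1h2bc, and its runs disagreed. In run 2 spleen exceeded blood for Hist1h1c (228 against 221 CPM) and Hist1h2be (32.2 against 27.3 CPM). Hist1h2bc was at 247 CPM in run 1 and 616 in run 2, and Hist1h1c at 108 and 228. The spleen runs also differed in B cell markers (22.0 and 903 CPM), T cell markers (42.4 and 172 CPM) and neutrophil precursor markers (3668 and 1018 CPM), whose part in the difference was not tested. Against spleen, bone marrow had 0 rows higher (0.512% of all genes) and 2 lower (2.24% of all genes). These were Hist1h2be, with 8.93 and 32.2 CPM in spleen (log2 difference -2.62 ± 0.38, adjusted p = 0.0248 by edgeR), and Hist1h2bc (-1.81 ± 0.29). Hist1h1c was at -1.07 ± 0.33 in that comparison. Without Hist1h2bc and Hist1h1c, 0 of 19 rows were higher and 1 lower. Per cell, 1 row was higher (Hist1h1e, beside 3.43% of all genes) and 1 lower (Hist1h2be, beside 0.563%). Hist1h2be was not called without spleen of run 2, at -1.94 (adjusted p = 0.0806 by edgeR). Neither Hist1h2be nor Hist1h2bc was called without the run term, without either blood library or without the cycling cells. In the first 3 of these fits 0 genes of any kind were called by edgeR, and without the cycling cells 0 were higher and 59 of 7444 lower.

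Spleen against blood gave 0 histone calls by edgeR in either direction, beside 0.0% of all genes higher and 0.0512% lower. At an unadjusted p under 0.05 there were 4 of 21 rows, beside 10.3% of all genes, and DESeq2 called 0 rows, with 22 genes higher and 7 lower of 5737. Per cell 0 rows were called too, beside 0.0% of all genes higher and 0.0384% lower. Hist1h2bc was at -0.72 ± 0.28 and Hist1h1c at -0.72 ± 0.33. With spleen of run 2 left out they were at -1.19 and -1.32. Spleen was then 1 library, whose spread was taken to be that of the other tissues. The library left out kept the fewest of its cells as neutrophils, 46.2%.

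Cells with a UMI of Top2a or Mki67 were compared with the other neutrophils of the same library to separate histone RNA seen in dividing cells from the rest. The comparison used bone marrow (84 and 212 such cells in run 1 and run 2) and spleen (22 and 22), since blood had 9 and 7. Hist1h2ae, an H2A gene, was at 26.0 and 24.7 CPM in cycling cells of bone marrow and 27.9 and 33.7 in spleen, and at 3.20, 1.87, 2.36 and 1.09 CPM in the other cells. All 4 libraries moved the same way, with a log2 difference of 3.30 ± 0.36 (adjusted p = 1.76e-06 by edgeR). These libraries come from 2 sets of mice, 1 per run. Hist1h1e rose by 0.87 ± 0.34 (adjusted p = 0.0456), and this call was lost with DESeq2, with RLE size factors, without the library block, in cells of at least 2000 UMIs and with any library but bone marrow of run 1 left out. Hist1h2al was called higher (2.33 ± 0.33), with 502 CPM in cycling cells of bone marrow and 983 in spleen of run 1, against 2.47 and 0 in run 2.

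The most abundant rows were lower in the same cells. Hist1h2bc was at 45.8 and 29.6 CPM in cycling cells of bone marrow and 76.7 and 42.2 in spleen, against 114, 116, 257 and 653 in the other cells (log2 difference -2.25 ± 0.27). Hist1h1c was at 45.8, 39.5, 20.9 and 42.2 CPM against 83.8, 66.3, 112 and 240 (-1.43 ± 0.24). Cycling cells were lower in 4 of 4 libraries for both genes, which were chosen as high in mature cells, so no test is given. Hist1h4i was at 29.7, 25.9, 13.9 and 8.43 CPM against 27.3, 35.3, 42.5 and 107 (-0.85 ± 0.29, adjusted p = 0.0238 by edgeR), with the values overlapping. This call was lost with DESeq2, in cells of at least 2000 UMIs (-0.08), without bone marrow of run 2 and without spleen of run 1.

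In all, 10 of 69 rows passed the filter in the comparison of cycling cells. Of these 3 were higher, beside 24.8% of all genes tested, and 4 were lower, beside 25.6%, the fourth being Hist2h2aa2. Without the 2 chosen genes, 3 of 8 were higher and 2 lower. With no filter on low counts, 64 rows were tested, of which 21 were higher, beside 14.5% of all genes, and 5 lower, beside 15.2%. Cycling cells were deep, with a median of 6088.5 to 9769.5 UMIs against 773 to 2524.5 in the others, and per cell the median of all genes moved to 1.98. On that scale 7 rows were higher, beside 85.3% of all genes, and 0 lower, beside 2.43%, with Hist1h1c at 0.56 ± 0.28, Hist1h2bc at -0.24 ± 0.28 and Hist1h4i at 1.17 ± 0.31 (adjusted p = 0.0017 by edgeR). Hist1h4i was thus lower in cycling cells as a share of the RNA and higher per cell.

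Rows differed in where their UMIs lay. Of 29 rows with at least 20 UMIs in healthy neutrophils, 9 had over 50% of them in the cycling cells, 11 had under 15% and 9 lay between. Cycling cells held 12.1% of all UMIs, and of 9126 genes of any kind with as many UMIs 5.99% had over 50% there and 56.2% under 15%. The median share was 25.0% for the 29 histone rows and 13.5% for all these genes. Hist1h1b, which encodes linker histone H1.5, had 82 of 89 UMIs (92.1%) in cycling cells, Hist1h2bj 84.6%, Hist1h2ap 80.8% and Hist1h1d 78.0%. Hist1h1b, Hist1h2bj and Hist1h1d were picked after their values were seen. Among the most abundant rows, low shares were held by Hist1h2bc with 1.68%, Hist1h2be with 2.39%, Hist1h1c with 3.94% and Hist1h4i with 5.65%. Hist1h1b reached 30.9 and 31.5 CPM in cycling cells of bone marrow and 42.2 in spleen of run 2, against 0.535 to 0.582 in the other cells, and was not listed in spleen of run 1. Hist1h2ap was at 115 CPM in cycling cells of bone marrow and 118 in spleen of run 2, against 4.28 and 2.72 in the others.

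The annotated end of the rows also differed between cell classes in run 2. Rows annotated to stop within 100 bases of the stem-loop, such as Hist1h2ap and Hist1h2bj, held 43.9% of the histone UMIs of cycling cells in bone marrow and 44.1% in spleen of run 2. In the other neutrophils of the same libraries they held 8.89% and 3.93%, and in bone marrow 16.2% in cells rich in granule transcripts, the class described next. In spleen that class held only 21 histone UMIs. In run 1 the same class of rows held 6.98% and 0.60% in cycling cells, and 71.9% and 91.0% fell to rows without a match, chiefly Hist1h2al. The distribution by annotated end therefore cannot be read across runs.

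Maturity was graded by Camp, Ltf, Ngp and Lcn2, secondary granule genes whose mRNA is made in immature neutrophils and falls later. Among cells without Top2a or Mki67, those with at least 3% of UMIs from these genes were called granule-high and those under 0.5% granule-low, which is a range and not a cell type. The granule-high class held 26 to 1287 cells per library and the granule-low class 162 to 3464, and 203 to 1067 cells per library lay near the lower limit, from 0.25% to 1%. Summed over all 69 rows, granule-high cells had 139 to 261 CPM, cells between the limits 396 to 1329 CPM, and granule-low cells 697 to 2374 CPM. In every library granule-high cells had the lowest and granule-low cells the highest level of the 3 classes. Cycling cells of bone marrow and spleen had 497 to 1164 CPM. Since Hist1h2bc and Hist1h1c carry these sums and were chosen as high in mature cells, the 67 other rows were also summed. They had 58.3 to 196 CPM in granule-high, 119 to 591 in intermediate and 161 to 852 in granule-low cells, in the same order in each library, and the values rest on 6 and 8 UMIs in granule-high cells of blood and spleen of run 2. Per 100 cells they did not separate the classes in run 2, with 23.1 against 23.8 UMIs in blood, 25.7 against 23.6 in bone marrow and 17.4 against 24.1 in spleen (granule-high against granule-low).

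**Figure D2:**
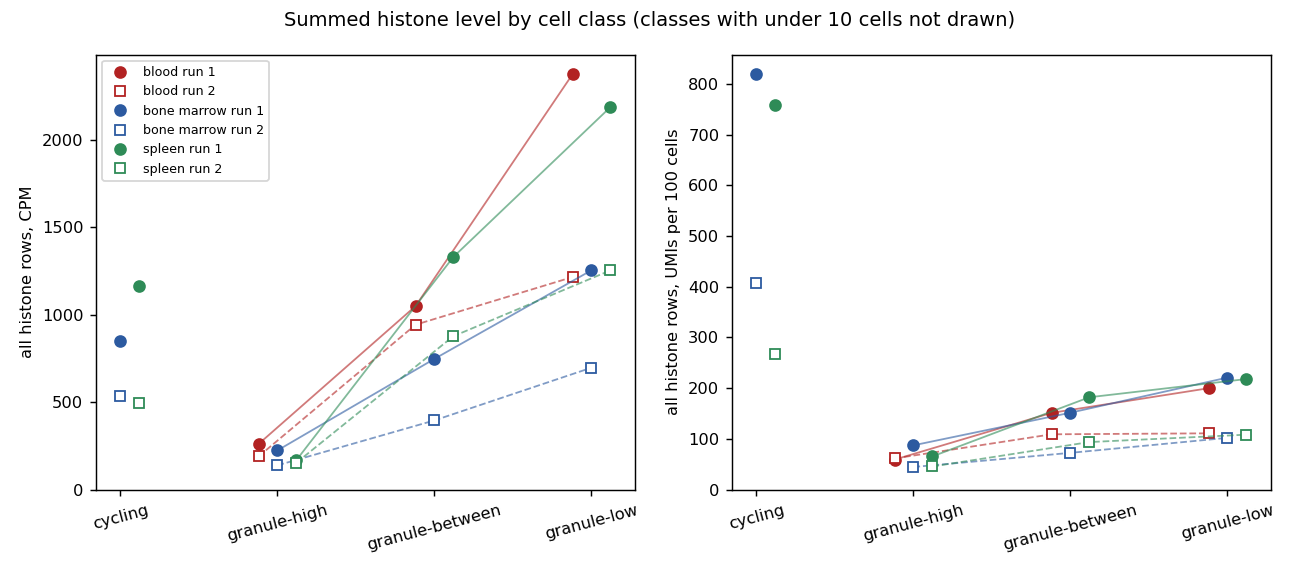
Summed level of all histone rows by cell class in the 6 healthy libraries (colour by tissue, filled circles and solid lines run 1, open squares and dashed lines run 2), as CPM on the left and as UMIs per 100 cells on the right. Granule-low cells lie above granule-high cells in all 6 libraries on both scales, and cycling cells are highest per 100 cells.

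Hist1h2bc was at 33.9, 71.2, 38.3, 30.2, 26.7 and 43.8 CPM in granule-high cells (blood, bone marrow and spleen, run 1 before run 2) and at 1009, 726, 522, 335, 1050 and 711 in granule-low cells. Hist1h1c was at 30.5, 47.4, 39.9, 28.8, 21.3 and 51.0 CPM and at 513, 229, 270, 201, 402 and 263. The classes did not overlap for either gene in any tissue. The fitted log2 differences were 3.64 ± 0.19 for Hist1h2bc and 2.69 ± 0.20 for Hist1h1c, given without a test because the genes were chosen for this pattern. Within granule-high cells the runs of blood, bone marrow and spleen overlapped for both genes. Within granule-low cells both bone marrow values of Hist1h2bc lay below every blood and spleen value, while those of Hist1h1c overlapped with the other tissues.

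Among the rows that were not chosen for this pattern, Hist1h4i moved with them. It was at 27.1, 11.9, 12.8, 17.9, 12.6 and 14.6 CPM in granule-high and 171, 114, 91.0, 66.1, 135 and 115 in granule-low cells (log2 difference 2.16 ± 0.22, adjusted p = 3.01e-07 by edgeR, higher in 6 of 6 libraries). The 6 libraries come from 2 sets of mice, 1 per run. Hist3h2a was at 0 to 11.9 CPM against 23.8 to 40.1 (1.26 ± 0.29, adjusted p = 0.0017 by edgeR). In all, 7 of 69 rows passed the filter, of which 6 were higher, beside 23.5% of all genes, and 0 were lower, beside 21.4%. Without Hist1h2bc and Hist1h1c, 4 of 5 were higher. With no filter on low counts, 9 of 54 rows were higher, beside 10.3% of all genes, and 1 was lower, beside 8.72%. The others were Hist2h2aa2 (1.93 ± 0.24) and Hist1h2al (1.30 ± 0.21), which rest on run 1. Hist2h2aa1 was not called (0.76 ± 0.46, adjusted p = 0.196).

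Granule-low cells hold less RNA, with a median of 761 to 1598 UMIs against 2223 to 3750, and per cell the median of all genes moved to -0.93. Hist1h2bc (2.69 ± 0.23), Hist1h1c (1.74 ± 0.24), Hist1h4i (1.25 ± 0.25, adjusted p = 0.0001 by edgeR) and Hist2h2aa2 (1.04 ± 0.28) were higher on that scale too, beside 6.64% of all genes, and 0 rows were lower, beside 67.2%. Without Hist1h2bc and Hist1h1c, 2 of 5 rows were higher per cell. Hist3h2a (0.35 ± 0.33, adjusted p = 0.329 by edgeR) and Hist1h2al were not called per cell.

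**Figure D3:**
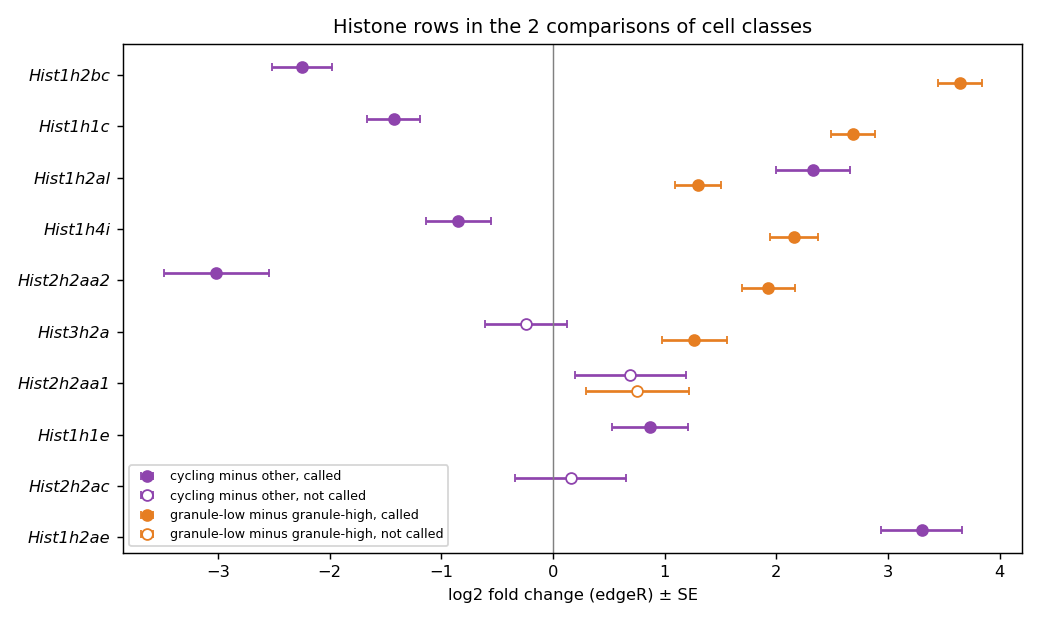
Log2 fold change with its SE from edgeR for each histone row that passed the filter, for cycling minus other neutrophils (purple) and granule-low minus granule-high neutrophils (orange), with filled points called at an adjusted p under 0.05. Hist1h2bc, Hist1h1c and Hist1h4i lie left of 0 in the first and right of 0 in the second, of which Hist1h2bc and Hist1h1c were chosen for being high in mature cells, and Hist1h2ae lies at 3.30 in the first.

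In the inflammation library the question was whether these rows differ between healthy blood and neutrophils from inflamed sites. The summed level was 1346 CPM in healthy blood, 922 in arthritic blood, 516 in arthritic joint, 287 in lung and 238 in peritoneum after IL-1b. Per 100 cells it was 297 UMIs in healthy blood, 305 in arthritic blood, 186 in joint, 99.7 in lung and 76.7 in peritoneum. Joint, lung and peritoneum thus lay below healthy blood on both scales, while arthritic blood did so only in CPM. Without Hist1h2bc and Hist1h1c the other rows summed to 364, 231, 206, 105 and 102 CPM in the same order, and to 80.4, 76.3, 74.3, 36.6 and 32.9 UMIs per 100 cells. The 8 B cell markers also differed, at 210, 125, 51.5, 22.7 and 28.6 CPM in that order, and the 15 neutrophil markers summed to 161385 CPM in healthy blood, 282663 in arthritic blood and 178742 to 213004 in the others. With cells left out that held a UMI of a B cell, T cell, NK cell or platelet marker, all histone rows summed to 1323, 931, 488, 272 and 233 CPM. A gene was called when its CPM ratio to healthy blood reached 2-fold and the sums held at least 20 UMIs. The median ratio of all genes was itself below 1, at 0.757, 0.721, 0.509 and 0.480 in arthritic blood, joint, lung and peritoneum.

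Hist1h1c had the lowest ratio of the rows read in peritoneum. It had 392 CPM in healthy blood, 253 in arthritic blood, 109 in joint, 76.5 in lung and 23.3 in peritoneum (441, 682, 1122, 101 and 22 UMIs). The ratios to healthy blood were 0.646 (95% interval 0.572 to 0.730), 0.278 (0.249 to 0.311), 0.195 (0.156 to 0.243) and 0.0595 (0.0369 to 0.0913). Per cell they were 0.967, 0.453, 0.307 and 0.0870. Hist1h2bc had 590, 439, 201, 105 and 112 CPM, with ratios of 0.743, 0.340, 0.178 and 0.190 (the last 0.154 to 0.234), and per cell 1.11, 0.554, 0.280 and 0.278. The interval of Hist1h1c in peritoneum lies below that of Hist1h2bc.

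Hist1h4i followed, with ratios of 0.583, 0.440, 0.202 and 0.209, and Hist3h2a had 2 UMIs in lung and 2 in peritoneum against 23 in healthy blood (ratios 0.0740, 0.00846 to 0.300, and 0.104, 0.0119 to 0.420). Hist1h2be lay close to the median of all genes in joint, lung and peritoneum. Its ratios in the 4 conditions were 0.612, 0.690, 0.455 and 0.452. After division by the median ratio of genes with a UMI in both conditions (0.757, 0.713, 0.508 and 0.482) it was at 0.809, 0.967, 0.895 and 0.938, and Hist1h1c at 0.853, 0.390, 0.384 and 0.124. Hist2h2aa1 was not past the limit in any condition by its CPM ratio (1.25, 1.45, 1.02 and 0.716). After the division it was past it upward in joint (2.03, 1.2 to 3.7) and lung (2.01, 0.957 to 4.29, on 18 against 15 UMIs), and per cell in joint (2.36, 1.40 to 4.30).

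By the 2-fold rule, 9 rows could be called in arthritic blood, 14 in joint, 7 in lung and 6 in peritoneum. In arthritic blood 0 rows were higher (1.21% of all genes) and 1, Hist1h4h, was lower (11.3%), on 5 against 17 UMIs. In joint 6 rows were lower (25.9%) and 3 higher (11.8%). The lower ones were Hist1h1c, Hist1h2bc, Hist1h4i, Hist3h2a, Hist1h1e and Hist1h4h. The higher ones rest on 0 or 1 UMI in healthy blood. Hist1h2ap had 27 UMIs against 1 (ratio 2.95, 0.486 to 121), Hist2h2ac 22 against 1 (2.40, 0.389 to 99.2), and Hist1h2ao 21 against 0. In lung 6 of 7 rows were lower (49.3%) and 0 higher (10.9%), and in peritoneum 5 of 6 were lower (51.8%) and 0 higher (10.2%). The lower rows in joint, lung and peritoneum include Hist1h1c and Hist1h2bc, which were chosen by name. The median ratio of the rows tested was 0.696, 0.709, 0.202 and 0.200 in the 4 conditions. Per cell, lower rows numbered 1 (Hist1h4h) in arthritic blood, beside 2.59% of all genes, and 1 (Hist1h1c) in joint, beside 6.84%. They numbered 5 in lung, beside 29.0%, and 4 in peritoneum, beside 34.1%. Higher rows per cell numbered 0 in arthritic blood (5.57%), 5 in joint (22.3%), 0 in lung (18.0%) and 0 in peritoneum (15.3%). Those in joint were Hist2h2aa1 (199 against 15 UMIs), Hist1h2al, Hist1h2ao, Hist1h2ap and Hist2h2ac. All but Hist2h2aa1 held only 0 to 2 UMIs in healthy blood and met the UMI minimum through joint, the deeper sum. Their intervals per cell reached below 1, so their calls do not show a rise.

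**Figure D4:**
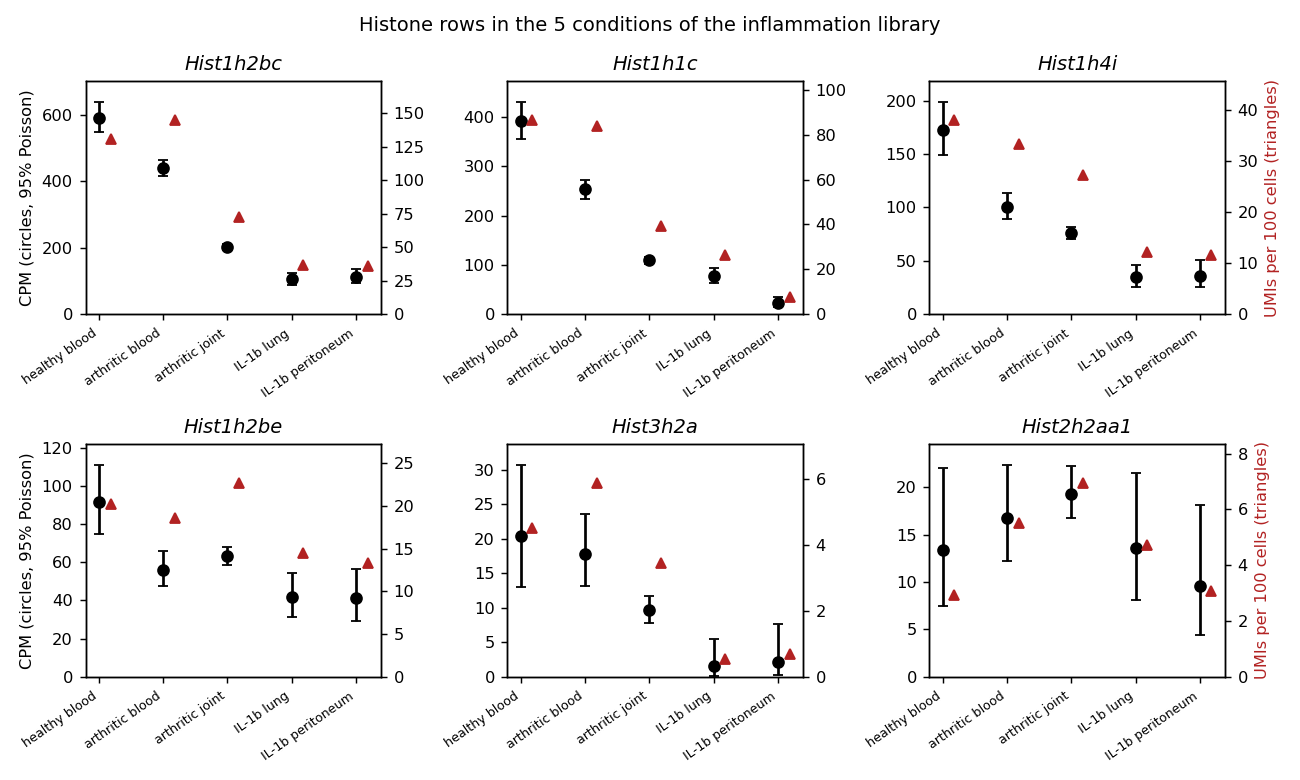
Level of 6 histone rows in the 5 conditions of the inflammation library, as CPM with 95% Poisson intervals (black circles, left axis) and UMIs per 100 cells (red triangles, right axis), each axis from 0. Hist1h1c is lowest in peritoneum, at 23.3 CPM, and Hist1h2be and Hist2h2aa1 vary least.

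Genes of the histone pathway outside the group were read from fixed lists. In cycling cells 24.8% of all genes were higher and 25.6% lower, and in granule-low cells 23.5% and 21.4%, and the counts below stand beside these shares. Of 9 tested replacement histones, 6 rose in cycling cells and 1, H2afj, fell. H2afx, the H2A.X gene, was at a log2 difference of 4.98 ± 0.20, Cenpa, the centromeric H3, at 3.90 ± 0.19 and H2afz, the H2A.Z gene, at 2.18 ± 0.22. In granule-low cells 3 of 8 rose and 1 fell. H3f3b, which encodes H3.3, was at 0.84 ± 0.13, H2afj at 0.76 ± 0.12 and H2afz at -1.31 ± 0.13 (all called by edgeR), and H3f3a, the other H3.3 gene, was at -0.03 ± 0.12 and was not called. In bone marrow against blood 4 of 9 were higher and 0 lower, beside 9.94% and 11.7% of all genes.

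Of the genes that process or transcribe histone mRNA, 7 of 11 tested rose in cycling cells, with Slbp at 1.88 ± 0.20, and 1 fell. The one that fell was Lsm10, a U7 snRNP subunit, at -2.30 ± 0.23. In granule-low cells Lsm10 rose by 0.85 ± 0.17, Srrt fell, and Slbp was at -0.29 ± 0.24 (not called), out of 4 tested. Histone chaperones rose in cycling cells in 9 of 12, led by Asf1b (6.04 ± 0.25), which hands H3 and H4 to assembly factors, and fell in 1 of 6, Nap1l4, in granule-low cells. All 12 tested S phase genes, Slbp among them, and all 15 tested G2M genes rose in cycling cells. These cells were chosen by Top2a or Mki67, genes of dividing cells, so this rise follows from the choice and is no separate result. In each of the 2 lists 1 gene could be tested in granule-low cells and 0 were called. Of 7 chromatin genes tested in cycling cells 4 rose (Hmgn2, Hmgb1, Hmgb2 and Lmnb2) and 1 fell, and of 6 tested in granule-low cells 2 rose (Lmnb1 and Hmgb1) and 1, Hmgn2, fell. The one that fell in cycling cells was Padi4, which citrullinates histones (-1.31 ± 0.22), and it was not called in granule-low cells (-0.31 ± 0.14). Lmnb1, encoding lamin B1, rose in granule-low cells (1.95 ± 0.16).

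The genes with a pattern most like Hist1h1c were sought over 2046 genes with at least 50 CPM on average, by Spearman's rho of CPM over the 6 healthy libraries and 5 conditions, 11 points that share libraries and span both chemistries. Ctage5, Glipr1, Rgs2 and Scnn1a led for Hist1h1c with 0.982 each, followed at 0.964 by Coro1a, Erp29, Fam168b and Gng2. These are descriptions of order across points that differ in depth.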

How the data were processed

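Single-cell 3′ libraries were aligned to mm10 and counted by the authors with Cell Ranger 1.2.0 (run 1), 2.1.0 (run 2) and 3.0.2 (inflammation), and the deposited UMI counts per gene symbol and cell carry no normalization. Run 1 files list only rows of at least 11 UMIs. Rows absent there were taken as 0, although up to 10 UMIs may be missing. No doublet caller was run, and free RNA was not removed. Inflammation conditions and granulocyte classes came from the deposited cell table.

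Counts were summed per library, or per library and cell class, and tested with edgeR 4.0.16 in R 4.3.3 (filterByExpr, TMM, quasi-likelihood, Benjamini-Hochberg over all genes, 0.05). Run was a block for tissues, and library for cell classes. Within a run the same mice gave every tissue, per the study's methods, and deviations of same-run libraries correlated at 0.597, 0.550 and 0.631 over 7809 genes. With 2 pools per tissue, p-values measure the spread between these pools. The cell class fits treat 4 or 6 libraries as separate, although they come from only 2 sets of mice. Their p-values therefore overstate the replication across mice. The fits were also run on simulated counts, whose outcome is not given here. Inflammation conditions got no test.

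Members and lists were chosen with earlier results of these data known. Named rows were Hist1h1c and Hist1h2bc, the 8 of highest mean CPM, and those called, up to fixed numbers per comparison (11 in all). Alternatives were DESeq2 1.42.0, RLE factors, no filter, no block, other cell filters and limits, and single libraries left out. Levels per cell, and genes with a row in all 6 healthy files, were added after seeing the data. The genes most like Hist1h2bc are not reported here.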

Additional observations from a re-analysis of the deposited data

Results flagged for a closer look

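Hist3h2a differed in direction between tissues in the comparison of cycling with other neutrophils. In bone marrow the cycling cells were higher by 6.85 CPM in run 1 (17.3 against 10.5) and by 0.841 CPM in run 2 (12.3 against 11.5). In spleen the difference was -13.8 CPM in run 1 (0 against 35 UMIs) and -24.8 CPM in run 2 (1 against 61 UMIs). The difference between tissues was not tested, and the spleen values rest on 22 cycling cells per library.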

How the results depend on the processing

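Counts of called histone rows moved as follows. They include Hist1h2bc and Hist1h1c, and the percentages beside them are shares of all genes tested. In bone marrow against blood, higher rows (2 of 21, 9.94%) became 1 of 22 with DESeq2 (5.99%), Hist1h1b, which was not among the 2. They became 1 of 12 with genes listed in all 6 files (15.2%) and 1 of 15 with quality filters (8.62%). Without marker-bearing cells they were 1 of 14 (11.8%), without cycling cells 1 of 13 (4.59%) and per cell 6 of 21 (56.9%). The higher rows were 3 of 16 at the limit of 10% for S100a8 and S100a9 (12.8%). Lower rows (7 of 21, 11.7%) became 6 of 22 with DESeq2 (7.45%) and 8 of 15 with quality filters (9.87%). Without cycling cells they were 8 of 13 (6.93%) and per cell 2 of 21 (1.96%). The higher and the lower rows also changed with 1 library left out. In bone marrow against spleen, higher rows (0 of 21, 0.512%) became 1 of 21 per cell (3.43%) and 1 of 12 with genes listed in all 6 files (0.896%). Lower rows (2 of 21, 2.24%) became 1 of 21 per cell (0.563%) and 0 of 13 without cycling cells (0.793%). These counts, and the lower rows (0 of 21, 0.0512%) in spleen against blood, also changed with 1 library left out. In cycling cells, higher rows (3 of 10, 24.8%) became 8 of 27 with DESeq2 (15.6%), 21 of 64 without the filter (14.5%) and 7 of 10 per cell (85.3%). With 1 library left out they were 2 to 7 of 9 to 14 rows (14.5% to 25%). Lower rows (4 of 10, 25.6%) became 0 of 10 per cell (2.43%) and 2 of 8 in cells of at least 2000 UMIs (26.5%). With 1 library left out they were 2 to 4 of 9 to 14 rows (15.4% to 30.5%). In granule-low cells, higher rows (6 of 7, 23.5%) became 8 of 12 with DESeq2 (14.3% of all genes) and 9 of 54 without the filter (10.3%). They became 5 of 7 without the library block (23.5%) and 4 of 7 per cell (6.64%). With 1 library left out they were 4 to 7 of 5 to 7 rows (19.2% to 22.7%). Lower rows (0 of 7, 21.4%) became 1 of 12 with DESeq2 (11.8%) and 1 of 54 without the filter (8.72%), Hist1h1e in both. In arthritic blood, lower rows (1) became 4 of 9 at a limit of 1.5-fold, beside 33.5% of all genes. In joint, higher rows (3) became 5 after scaling by the median ratio (17.8% of all genes) and 5 per cell (22.3%), and lower rows (6) became 2 (10.6%) and 1 (6.84%). All of these higher rows but Hist2h2aa1 held 0 to 2 UMIs in healthy blood, with intervals that reached below 1. In lung, higher rows (0) became 1 after scaling (22.9%) and lower rows (6) became 5 (21.2%), and in peritoneum lower rows (5) became 4 (20.3%). The summed level in joint was 488 CPM without marker-bearing cells. Directions turned per cell for Hist3h2a in bone marrow against blood (0.14), and for Hist1h1c (0.56) and Hist1h4i (1.17) in cycling cells. Where levels per cell moved a call, cells of the groups differ in UMIs, and the cause of the other changes was not tested.

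Without the run or library block, the pairing was dropped. Histone rows higher and lower in bone marrow were then 0 and 1 of 21 against blood (1.06% and 1.04% of all genes), the 1 being Hist1h2bc. Against spleen they were 0 of 21, beside 0% of all genes. In cycling cells 1 of 10 rows was higher (17.8%) and 3 were lower (19.2%). All genes called fell from 776 higher and 916 lower to 83 and 81 in bone marrow against blood.

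With 2 libraries per tissue and 10 of 69 rows or fewer past the filter in the cell class comparisons, a missing call does not show that a row was stable. Depth limits the 33 of 69 rows with 1 to 20 UMIs to counts.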

Other observations

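Cells left out because S100a8 and S100a9 made up under 3% of their UMIs, which are mixed and were not typed, also held histone RNA. Their summed level in run 1 and run 2 was 1628 and 369 CPM in spleen, 774 and 628 in bone marrow, and 758 and 177 in blood. Hist3h2a was at 85.8 CPM in these cells of bone marrow of run 2, against 11.6 in the neutrophils of that library, and at 9.77 to 57.5 CPM in the other 5 libraries. In spleen of run 1 the pseudogene row Hist1h2al was at 1046 CPM there.

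Among inflamed conditions, Lmnb1 was past the 2-fold limit upward in joint, lung and peritoneum, with Lmna in joint, while Padi4, Hmgb2, Hmgn2 and Lbr were past it downward in the same 3 conditions. Hmgb1 was past it downward in lung and peritoneum. Replacement histones were past it upward in none of the 4 conditions and downward in 0, 2, 4 and 5 of 8 tested genes in arthritic blood, joint, lung and peritoneum. For comparison, 11.3%, 25.9%, 49.3% and 51.8% of all genes were lower in arthritic blood, joint, lung and peritoneum. In the same order 1.21%, 11.8%, 10.9% and 10.2% were higher. Each condition is 1 pool, and none of these values has a replicate check.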
